A study of Mus musculus with 24 samples.

Results

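Collagen chain genes encode the polypeptides that wind in threes into the collagens of the extracellular matrix. They were described here in 24 mouse livers as the genes whose symbol reads Col, a number, the letter a and a number. Each gene was represented by the probe set with the highest mean among those that map to 1 symbol. The rule gave 42 of the 18820 genes on the array. Of these, 11 encode fibrillar chains, 8 encode basement membrane chains and 23 encode other chains. All 42 were tested, with no filter on low values, and 15 of them had a mean signal at or above that of the median gene. Col7a1 and Col9a3 lie on probe sets that name several genes and are not members.

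The study asked how the liver transcriptome depends on FXR, the nuclear receptor for bile acids, and on its agonist obeticholic acid (OCA, also INT-747). Male C57BL/6 mice, either wild type or FXR-/-, entered treatment at 9 to 12 weeks of age. For 7 days they were gavaged daily with 1% methyl cellulose, or with OCA at 10 mg/kg/day in the same carrier. This gave 4 groups of 6 livers, each liver on 1 array: wild type with vehicle, wild type with OCA, FXR-/- with vehicle and FXR-/- with OCA. Whether the wild-type mice were littermates of the FXR-/- mice is not stated in the labels. All values are log2 expression from robust multi-array averaging (RMA), so a difference of 1 is a 2-fold change, and the number of arrays limits the precision.

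In healthy liver, collagens are sparse and lie around portal tracts, in the central vein wall and in the space of Disse along the sinusoids. Stellate cells and portal fibroblasts make most of the fibrillar chains, and collagen I and III build up when the liver scars. Chains are hydroxylated and glycosylated in the endoplasmic reticulum, joined into triple helices, trimmed outside the cell and cross-linked by lysyl oxidases.

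The signal of Nr1h4, which encodes FXR, does not check the genotype labels. It ranged from 9.85 to 10.30 on the wild-type arrays and from 9.80 to 10.13 on the FXR-/- arrays, and the labels do not say where its probes lie relative to the deleted part. The receptor's target Nr0b2 did separate the genotypes, with 5.87 as the lowest wild-type value and 4.82 as the highest FXR-/- value. Within groups, pairs of arrays correlated at 0.983 to 0.997 over all genes, and no 2 arrays were identical. Wild-type vehicle replicate 6 stood apart from its group, with 532 genes that differed more than 2-fold from the mean of its 5 companions, against 2 to 90 genes on any other array. No collagen gene differed that much on it. Array names carry a code number whose meaning the labels do not give. All wild-type OCA arrays and wild-type vehicle replicates 5 and 6 carry number 5, all FXR-/- OCA arrays and FXR-/- vehicle replicates 1 and 2 carry number 9, and the other vehicle arrays carry number 7.

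Several members sit side by side in the genome. Among protein-coding genes in the RefSeq annotation (GRCm38.p6), Col3a1 neighbours Col5a2 and Col4a4 neighbours Col4a3 on chromosome 1, Col6a2 neighbours Col6a1 on chromosome 10, and Col4a1 neighbours Col4a2 on chromosome 8. Col9a1 neighbours Col19a1 on chromosome 1, Col6a4, Col6a5 and Col6a6 lie in a row on chromosome 9, and Col4a5 neighbours Col4a6 on the X chromosome. The RefSeq promoter table held 37 promoters of 34 of the 42 genes. Below are the bases upstream of the transcribed part of 4 genes that were higher in FXR-/- liver, chains of collagen I, III and VI, and of Col18a1, which was lower. They are printed 5′ to 3′ on the gene's own strand, with matches on either strand in capitals. The searched words were CCAAT of the CCAAT box, TATAAA of the TATA box, GGGCGG of the GC box and AGGTCA, the half-site of many nuclear receptors. On the opposite strand the CCAAT box reads ATTGG and the GC box CCGCCC. The positions are chr6:4505368-4505617 (plus strand) for Col1a2, chr1:45311288-45311537 (plus) for Col3a1, chr10:76726045-76726294 (minus) for Col6a1, chr1:90844002-90844221 (minus) for Col6a3 and chr10:77166531-77166780 (minus) for Col18a1.
Col1a2: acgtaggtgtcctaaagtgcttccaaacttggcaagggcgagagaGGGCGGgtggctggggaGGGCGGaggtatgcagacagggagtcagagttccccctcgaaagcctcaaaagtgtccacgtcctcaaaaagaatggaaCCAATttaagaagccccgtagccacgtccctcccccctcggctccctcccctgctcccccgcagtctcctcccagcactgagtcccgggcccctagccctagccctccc
Col3a1: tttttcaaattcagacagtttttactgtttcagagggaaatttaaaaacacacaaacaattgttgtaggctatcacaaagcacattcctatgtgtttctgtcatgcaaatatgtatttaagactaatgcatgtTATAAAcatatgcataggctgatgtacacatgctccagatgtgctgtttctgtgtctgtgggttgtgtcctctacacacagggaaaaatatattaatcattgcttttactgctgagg
Col6a1: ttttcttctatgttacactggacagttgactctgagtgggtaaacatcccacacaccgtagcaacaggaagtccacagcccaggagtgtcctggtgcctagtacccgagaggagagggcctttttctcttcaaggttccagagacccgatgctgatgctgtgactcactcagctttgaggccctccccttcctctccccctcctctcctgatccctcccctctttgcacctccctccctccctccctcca
Col6a3: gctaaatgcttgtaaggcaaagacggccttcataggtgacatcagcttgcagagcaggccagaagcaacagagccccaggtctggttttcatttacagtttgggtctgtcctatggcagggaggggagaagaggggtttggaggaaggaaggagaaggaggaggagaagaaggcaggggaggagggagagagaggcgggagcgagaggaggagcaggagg
Col18a1: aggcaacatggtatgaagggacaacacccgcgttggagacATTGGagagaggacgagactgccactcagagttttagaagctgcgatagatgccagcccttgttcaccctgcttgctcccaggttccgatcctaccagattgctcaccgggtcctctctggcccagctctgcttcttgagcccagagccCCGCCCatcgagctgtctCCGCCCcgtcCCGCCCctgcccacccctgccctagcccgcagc

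None of the searched words is present in all 5 stretches. Col1a2 holds the GC box word at 2 positions and the CCAAT box word at 1, and Col3a1 holds the TATA box word. Col18a1 holds the CCAAT box word at 1 position and the GC box word at 3, all on the opposite strand, and the 2 collagen VI stretches hold none. Over the 250 bases before the start in all 32851 promoters of the table, the CCAAT box word was present in 33.8%, the TATA box word in 12.4%, the GC box word in 32.7% and the half-site in 14%. The collagen promoters held them in 12, 5, 21 and 7 of 37 respectively. A match is a description of the letters and not a site. Col1a1, Col5a2 and Col14a1 are named without a promoter.

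FXR-/- livers on vehicle had more transcript of the main interstitial collagens than wild-type livers on vehicle. The largest differences were in Col6a3, Col3a1, Col1a1 and Col1a2, at 2.37-fold to 3.05-fold. Smaller rises were seen in the other 2 main chains of collagen VI, in Col14a1, in Col5a2 and in the collagen IV pair Col4a1 and Col4a2. Col27a1, Col20a1, Col28a1, Col5a3 and Col18a1 were lower, by up to 1.34-fold. In all, 15 of 42 collagen genes (35.7%) differed at a Benjamini-Hochberg adjusted p under 0.05 in limma, 10 higher and 5 lower. Over all genes 27.5% did, 15.4% higher and 12.1% lower. The median change was -0.06 over the collagen genes and -0.03 over all genes, so most members did not follow the interstitial chains. Of the 15 members at or above the median gene in mean signal, 12 were called, 9 of them higher. Among all 9410 genes at or above that level 3923 were called (41.7%), 2162 of them higher. Of the 27 dimmer members 3 were called (11.1%). Dim genes in general were called less often too, since 3923 of the 5174 calls over all 18820 genes fell among the brighter 9410. The low share is thus not particular to collagen genes. In whole liver, fewer cells of a type and less RNA per cell cannot be told apart.

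Collagen I, the main fibril of scar tissue, is built from the chains of Col1a1 and Col1a2. Col1a1 read 5.44 to 5.87 with a median of 5.60 on wild-type vehicle arrays, 5.62 to 6.30 (6.07) on wild-type OCA arrays, 7.04 to 7.39 (7.19) on FXR-/- vehicle arrays and 6.84 to 8.01 (7.07) on FXR-/- OCA arrays. Every FXR-/- liver was above every wild-type liver, and the spread was widest with OCA in FXR-/- mice, where replicate 2 gave the 8.01. With vehicle the difference was 1.54 ± 0.15 on the log2 scale (SE, n = 6 per group), or 2.90-fold, with an adjusted p of 1.18e-08. Col1a2 ranged from 5.46 to 6.02 (5.76) in the wild-type vehicle group, from 5.56 to 6.08 (5.80) with OCA, and in FXR-/- liver from 6.70 to 7.19 (7.02) with vehicle and from 6.60 to 7.39 (6.97) with OCA. Its wild-type and FXR-/- values did not overlap either, and the vehicle difference was 1.25 ± 0.12 (2.37-fold, adjusted p = 1.26e-08).

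**Figure D1:**
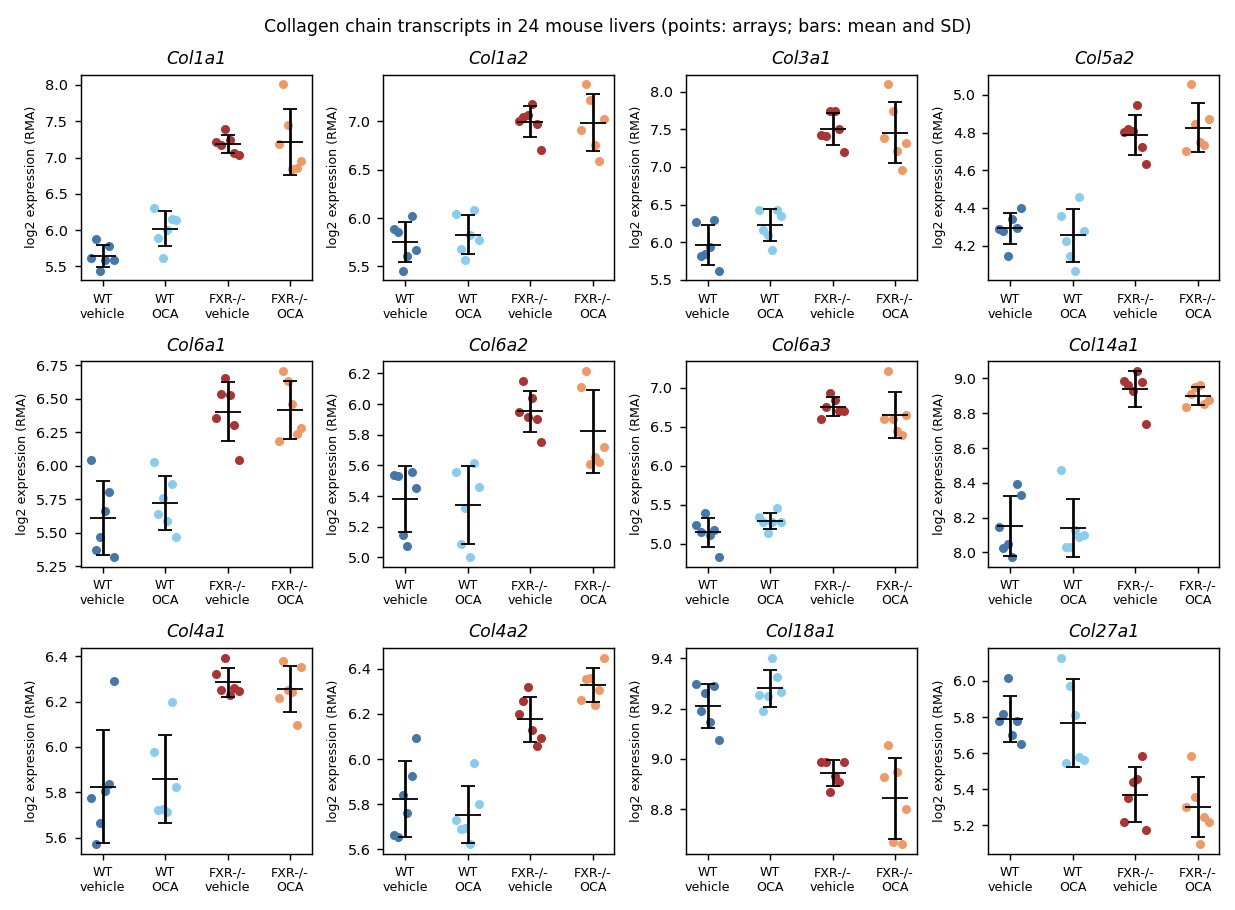
Log2 expression (RMA) of 12 collagen chain genes on each of the 24 arrays, by group, with the mean as a horizontal bar and the SD as a vertical one, and a separate vertical scale per gene. Col1a1, Col1a2, Col3a1, Col5a2, Col6a1, Col6a3 and Col14a1 show no overlap between genotypes, while Col18a1 and Col27a1 lie lower in FXR-/- liver and 1 wild-type vehicle array of Col4a1 reaches 6.29.

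Col3a1 encodes the single chain of collagen III, which forms the reticular fibres of the liver. On wild-type arrays it read 5.62 to 6.29 (median 5.89) with vehicle and 5.89 to 6.43 (6.25) with OCA. On FXR-/- arrays it read 7.20 to 7.74 (7.47) with vehicle and 6.96 to 8.10 (7.35) with OCA, and again replicate 2 of the OCA group was the highest. The genotypes did not overlap, and the vehicle difference was 1.54 ± 0.15 (2.91-fold, adjusted p = 2e-08). Its genomic neighbour Col5a2, a chain of the collagen V that seeds collagen I fibrils, moved less. Col5a2 read 4.14 to 4.40 (4.29) and 4.07 to 4.46 (4.25) on wild-type arrays with vehicle and OCA, against 4.63 to 4.95 (4.81) and 4.70 to 5.06 (4.80) on FXR-/- arrays. That is a vehicle difference of 0.50 ± 0.07 (adjusted p = 6.18e-06) without overlap.

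The partner chain Col5a1 did not pass, and its levels lay on top of each other in the 4 groups. Its medians were 5.29 and 5.36 in wild-type liver with vehicle and OCA, and 5.34 and 5.37 in FXR-/- liver, within an overall range of 5.17 to 5.58. The vehicle difference was 0.05, with a 95% interval from -0.09 to 0.19, and its sign turned when arrays were quantile normalized (-0.11). Col5a3, which encodes a less widely expressed collagen V chain, went the other way. It read 5.31 to 5.60 (median 5.42) in wild-type vehicle livers and 5.01 to 5.25 (5.16) in FXR-/- vehicle livers, a difference of -0.30 ± 0.08 (adjusted p = 0.00387). With OCA it read 5.28 to 5.81 (5.63) and 4.94 to 5.25 (5.12), and neither pair of groups overlapped. Col27a1, a fibrillar chain known from cartilage, read 5.65 to 6.02 (5.78) against 5.17 to 5.58 (5.40) with vehicle, at -0.42 ± 0.10 (adjusted p = 0.00225). Of the 11 fibrillar genes, 4 were thus higher and 2 lower with vehicle; Col2a1, Col11a1, Col11a2 and Col24a1 were not called.

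Collagen IV forms the network of basement membranes, and in most tissues its chains are those of Col4a1 and Col4a2. Col4a1 read 6.23 to 6.39 (median 6.26) in FXR-/- vehicle livers and 5.57 to 6.29 (5.79) in wild-type vehicle livers. Wild-type replicate 6 alone reached into the FXR-/- range; the other 5 wild-type arrays stopped at 5.84. The difference was 0.46 ± 0.10 (adjusted p = 0.000571). Col4a2 read 6.06 to 6.32 (6.16) against 5.65 to 6.09 (5.80), a difference of 0.35 ± 0.07 (adjusted p = 0.000643), and these groups overlapped slightly. Col15a1, a basement membrane-associated chain related to Col18a1, read 5.42 to 5.85 (5.67) in wild-type and 5.75 to 6.04 (5.89) in FXR-/- vehicle livers, which overlapped, and did not pass (0.23, 95% interval -0.0001 to 0.47, adjusted p = 0.133). Col18a1, whose cleavage releases endostatin, was lower in FXR-/- liver: 8.87 to 8.99 (8.96) against 9.07 to 9.30 (9.23), or -0.27 ± 0.06 (adjusted p = 0.00273), with no overlap. The other 4 collagen IV genes, Col4a3 to Col4a6, were not called, which leaves 2 higher and 1 lower of 8.

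Collagen VI makes beaded filaments that link cells to the interstitial matrix, from 1 chain each of Col6a1, Col6a2 and Col6a3 in its classical form. Col6a3 showed the largest change of all members. It read 4.83 to 5.39 (median 5.17) and 5.14 to 5.46 (5.28) on wild-type arrays with vehicle and OCA, and 6.61 to 6.94 (6.73) and 6.40 to 7.22 (6.60) on FXR-/- arrays. The genotypes stood apart by more than the range within any wild-type group, with a vehicle difference of 1.61 ± 0.11 (3.05-fold, adjusted p = 1.23e-11). Col6a1 read 5.32 to 6.04 (5.56) against 6.04 to 6.66 (6.44) with vehicle, a narrow gap between groups and a difference of 0.79 ± 0.13 (adjusted p = 2.38e-05). For Col6a2 the values were 5.07 to 5.55 (5.49) and 5.75 to 6.15 (5.93), a difference of 0.57 ± 0.12 (adjusted p = 0.00082). Col6a4, Col6a5 and Col6a6, later-described alternatives to the Col6a3 chain, were not called.

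Col14a1 encodes a chain that sits on the surface of fibrils. Its range was 7.97 to 8.39 (median 8.10) in wild-type and 8.74 to 9.04 (8.97) in FXR-/- vehicle livers, and the OCA groups were alike, at 8.03 to 8.47 (8.09) and 8.84 to 8.96 (8.90). The vehicle difference was 0.79 ± 0.08 (1.72-fold, adjusted p = 2.22e-08) without overlap. Col20a1 is of the same fibril-associated type, and Col28a1 is a chain with von Willebrand A domains. Both were lower in FXR-/- liver, with overlapping groups. Col20a1 read 4.53 to 5.29 (4.79) in wild-type and 4.14 to 4.67 (4.46) in FXR-/- vehicle livers, at -0.38 ± 0.12 (adjusted p = 0.0228). Col28a1 read 3.68 to 4.14 (3.97) against 3.48 to 3.79 (3.58), at -0.31 ± 0.09 (adjusted p = 0.00941). The Col20a1 call ended without wild-type vehicle replicate 6 (-0.28, adjusted p = 0.0659) and without FXR-/- vehicle replicate 5 (-0.31, adjusted p = 0.0673), and its other probe set was not called (-0.25, adjusted p = 0.29). Of the 23 other chains, 4 were higher and 2 lower. In all, 11 of 42 collagen genes had no overlap between genotypes with vehicle, against 15.1% of all genes.

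The collagen counts with vehicle were compared within array code number 7, which holds 4 livers of each genotype. There 17 collagen genes were called, 11 higher and 6 lower, against 24.1% of all genes in that fit, and 15 of them were also called over all arrays. Within it the differences were 1.55 for Col1a1, 1.28 for Col1a2, 1.58 for Col3a1, 1.57 for Col6a3, 0.87 for Col14a1 and 0.58 for Col4a1, so the leading chains stood as high there as over all arrays. Col15a1 was called within it (0.26, adjusted p = 0.0328).

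**Figure D2:**
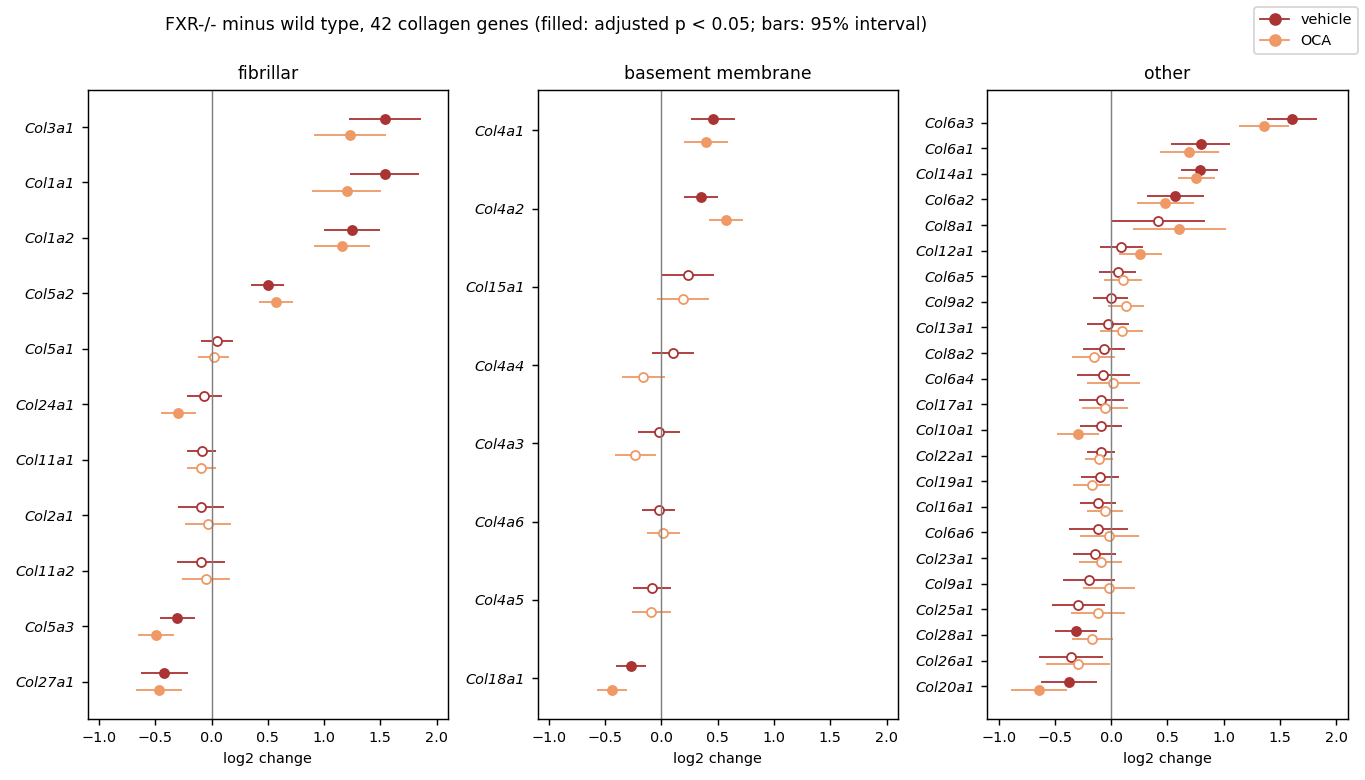
Log2 difference between FXR-/- and wild-type liver for all 42 collagen genes, by class, with vehicle (dark) and with OCA (light); bars are 95% intervals and filled points have an adjusted p under 0.05. Col3a1, Col1a1, Col1a2 and Col6a3 lie beyond 1 in both treatments, and most other chains lie near 0.

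With OCA in both genotypes, the same interstitial chains were higher in FXR-/- liver. Col6a3 stood at 1.36 ± 0.11 (adjusted p = 2.77e-10), Col3a1 at 1.23 ± 0.15 (6.69e-07), Col1a1 at 1.20 ± 0.15 (5.85e-07) and Col1a2 at 1.16 ± 0.12 (3.94e-08). In this comparison 18 of 42 collagen genes were called (42.9%, against 30.7% of all genes), 12 higher and 6 lower, where 17.4% and 13.3% of all genes were. No overlap between genotypes was seen for 11 members, against 18.4% of all genes. The median change was -0.03 over the collagen genes and -0.02 over all genes. The 2 genotype comparisons set different arrays against each other, but they share each gene's estimate of spread, taken from all 24 arrays. How many of all genes were called in both was not counted, so the agreement cannot be set against a background. Among the collagen genes 14 were called in the same direction in both. That is 14 of the 15 called with vehicle and 14 of the 18 called with OCA. These were 10 higher genes and 4 lower ones, Col27a1, Col20a1, Col5a3 and Col18a1.

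Under OCA the collagen IV pair differed between genotypes by 0.57 ± 0.07 for Col4a2 (adjusted p = 1.01e-06) and 0.40 ± 0.10 for Col4a1 (adjusted p = 0.00206). Col4a2 read 6.24 to 6.45 (median 6.33) in FXR-/- OCA livers and 5.62 to 5.98 (5.71) in wild-type OCA livers, with no overlap. Col18a1 read 8.66 to 9.05 (8.86) against 9.19 to 9.40 (9.26), a difference of -0.44 ± 0.06 (adjusted p = 7.51e-06) with the groups again apart. Col14a1 (0.76), Col6a1 (0.69), Col5a2 (0.57) and Col6a2 (0.48) were higher, with adjusted p from 3.75e-08 to 0.00334. Col6a1 read 5.47 to 6.03 (5.70) in wild-type and 6.19 to 6.71 (6.37) in FXR-/- OCA livers, with no overlap. The ranges of Col6a2, 5.00 to 5.61 (5.39) and 5.61 to 6.22 (5.69), and of Col4a1, 5.71 to 6.20 (5.77) and 6.10 to 6.38 (6.25), overlapped. On the lower side Col20a1 stood at -0.64, Col5a3 at -0.50 and Col27a1 at -0.47, with adjusted p from 1.49e-05 to 0.000717. Col20a1 read 4.67 to 5.37 (5.06) in wild-type and 4.25 to 4.57 (4.45) in FXR-/- OCA livers, now without overlap. The other probe set of Col20a1 moved less and was not called with OCA either (-0.29, limma adjusted p = 0.203). Col27a1 read 5.55 to 6.13 (5.70) against 5.10 to 5.59 (5.27), with overlap.

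Another 4 genes were called with OCA and not with vehicle, and all 4 had a mean signal below that of the median gene and overlapping groups. Col8a1, a short chain that forms sheets under endothelium, read 3.91 to 5.19 (median 4.65) in FXR-/- and 3.50 to 4.47 (4.00) in wild-type OCA livers, at 0.60 ± 0.20 (adjusted p = 0.0225). Col12a1, a fibril-associated chain, read 4.18 to 4.58 (4.28) in FXR-/- and 3.78 to 4.26 (4.10) in wild-type OCA livers, at 0.26 ± 0.09 (adjusted p = 0.0338). Both calls were fragile: the Col8a1 call held in 7 of 12 fits that left out 1 array and the Col12a1 call in 6 of 12. For Col8a1 the call ended without wild-type OCA replicate 4 or 5 or without FXR-/- OCA replicate 1, 2 or 3, with differences of 0.49 to 0.55. For Col12a1 it ended without wild-type OCA replicate 1, 2 or 4 or without FXR-/- OCA replicate 1, 2 or 3, with differences of 0.21 to 0.26. Col10a1, known from growth plate cartilage, read 3.47 to 3.71 (3.57) in FXR-/- and 3.69 to 4.17 (3.85) in wild-type OCA livers, at -0.30 ± 0.09 (adjusted p = 0.0139). The fibrillar Col24a1 read 3.53 to 4.00 (3.73) against 3.95 to 4.16 (3.99), at -0.29 ± 0.08 (adjusted p = 0.00438). Col28a1, called with vehicle, stood at -0.17 (limma adjusted p = 0.167) with OCA. Whether Col28a1 or these 4 genes differ between treatments is the test of the OCA effects between genotypes given further on. None passed it, but that test called 0 of all 18820 genes, so the treatments are not shown to be alike.

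All wild-type OCA arrays carry code number 5 and all FXR-/- OCA arrays number 9, so in this comparison number and genotype cannot be told apart within the OCA groups. A fit with the number as a block, which joins the numbers through the vehicle arrays, called 11 collagen genes, 8 higher and 3 lower, where 12.4% of all genes were called in place of 30.7%. Col6a3 stood at 1.25, Col3a1 at 1.35, Col1a1 at 1.24, Col1a2 at 1.26 and Col14a1 at 1.02 in it, all still called. The calls of 7 genes were lost, and each kept its direction. Their differences became 0.55 ± 0.31 for Col6a1, 0.52 ± 0.29 for Col6a2, -0.53 ± 0.26 for Col20a1, -0.45 ± 0.24 for Col27a1, -0.22 ± 0.22 for Col10a1, 0.40 ± 0.22 for Col12a1 and 0.96 ± 0.48 for Col8a1, with larger SE than without the block and adjusted p from 0.204 to 0.583. With the block and without wild-type vehicle replicate 6, 6 genes were called (against 9.74% of all genes), all higher: Col6a3, Col14a1, Col1a2, Col3a1, Col4a2 and Col1a1.

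The remaining 21 collagen genes were called in no comparison and spanned a narrow range. Their differences between genotypes ran from -0.36 (Col26a1) to 0.10 (Col4a4) with vehicle and from -0.30 (Col26a1) to 0.13 (Col9a2) with OCA, and the smallest adjusted p were 0.0555 and 0.0523. With vehicle 19 of the 21 lay below 0 and with OCA 16 did, against 10564 and 10324 of all 18820 genes. The 21 leave out the called genes, most of which were higher, and the uncalled Col5a1 and Col15a1, which lay above 0. The count therefore does not describe the collagen genes as a whole.

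The sign of small collagen differences depended on how arrays were scaled. As deposited, the median over all genes was higher on FXR-/- than on wild-type arrays by 0.17 with vehicle and 0.19 with OCA, although the median of the per-gene changes was -0.03 and -0.02. Over all 35556 probe sets the array medians were 4.57 to 4.65, a narrower range than this shift. Centring each array on the median of its 18820 genes moved every change down by 0.17 with vehicle and 0.19 with OCA. With vehicle the median change became -0.20 over all genes and -0.23 over the collagen genes. The collagen calls then numbered 31 with vehicle (10 higher, 21 lower), against 53.8% of all genes, and 30 with OCA (9 higher, 21 lower), against 59%; over all genes with vehicle the higher share of calls went from 56.1% to 17.5%. Quantile normalization gave 19 collagen calls in each, 10 higher and 9 lower, against 28.6% and 32% of all genes, and a higher share of 46.9% over all genes with vehicle. With vehicle all 10 higher and all 5 lower genes kept their direction and their call under both scalings. With OCA, Col4a1 (0.21, adjusted p = 0.0685), Col8a1 (0.41, 0.0685) and Col12a1 (0.07, 0.5) lost theirs with centring, and Col12a1 (0.20, 0.13) and Col8a1 (0.52, 0.0517) lost theirs with quantile normalization too. By class with vehicle, centring gave 4 higher and 6 lower fibrillar genes, 2 and 3 basement membrane genes and 4 and 12 other chains.

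OCA moved no collagen gene past the threshold in either genotype. In wild-type liver 0 of 42 were called with limma, against 0.0691% of all genes (13 genes), and 3 had an unadjusted p under 0.05. The median change was 0.00, the range -0.20 to 0.37 and the smallest adjusted p 0.417. In FXR-/- liver 0 of 42 were called, against 0.0159% of all genes (3 genes), 2 had an unadjusted p under 0.05, changes ran from -0.20 to 0.20 and the smallest adjusted p was 0.927. The 2 comparisons of genotypes and the 2 of OCA draw on the same 4 groups.

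Col1a1 had the largest change with OCA in wild-type liver, 0.37 with a 95% interval from 0.06 to 0.68, and its groups overlapped between 5.62 and 5.87. Col3a1 stood at 0.26 (-0.05 to 0.58), Col4a3 at 0.21 (0.02 to 0.39) and Col24a1 at 0.18 (0.02 to 0.34). In FXR-/- liver Col1a1 stood at 0.03 (-0.27 to 0.34) and Col3a1 at -0.05 (-0.36 to 0.27). The widest reach there was that of Col8a1, at 0.20 with an interval from -0.21 to 0.61. The intervals thus allow changes of up to about those bounds, and a p that misses the threshold does not show that OCA left these genes alone.

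**Figure D3:**
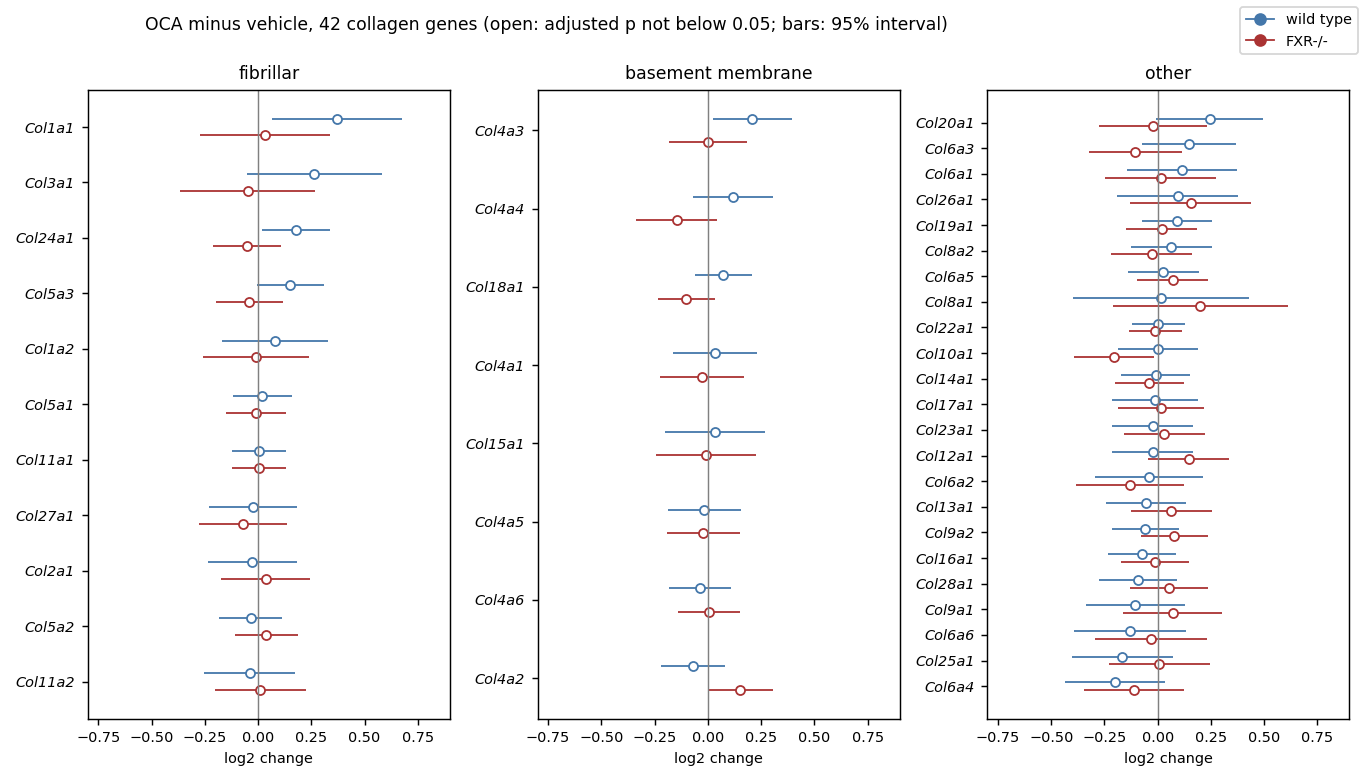
Log2 difference between OCA and vehicle for all 42 collagen genes, by class, in wild-type (blue) and FXR-/- (red) liver; bars are 95% intervals and every point is open because no adjusted p was under 0.05. Changes run from -0.20 to 0.37, with Col1a1 in wild-type liver at the upper end.

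The difference of the OCA effects between genotypes was called for 0 of 42 members and for 0% of all genes in limma, and 2 members had an unadjusted p under 0.05, Col4a2 (0.22, 95% interval 0.01 to 0.44) and Col24a1 (-0.23, -0.46 to -0.01). The smallest adjusted p was 0.815. The FXR target Nr0b2 was not called in this test either (-1.21, limma adjusted p = 0.495). Yet its OCA change was 1.41 (adjusted p = 0.0244) in wild-type liver and 0.20 (adjusted p = 0.997) in FXR-/- liver. Missing this test therefore does not show that the OCA effects are equal. For Col1a1 the difference was -0.34 with an interval from -0.77 to 0.10, and for Col3a1 it was -0.31 (-0.76 to 0.14). Code number 5 holds all wild-type OCA arrays and 2 wild-type vehicle arrays, replicate 6 among them. Number 9 holds all FXR-/- OCA arrays and 2 FXR-/- vehicle arrays. Within each number OCA gave 0 collagen calls. With 2 vehicle arrays such a fit can detect only large changes, so these counts of 0 add no support.

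Chains that assemble together were compared liver by liver, as deviations from the group means, so that group differences did not enter. Over 24 arrays Col1a1 and Col1a2 rose and fell together, with Pearson's r = 0.82 and Spearman's rho = 0.84 (two-sided permutation test within groups, 100000 permutations, p = 1e-05 for each, the smallest they can give; adjusted over 9 pairs 9e-05). Without the 2 arrays farthest from the median of Col1a1, r was 0.79, and r within each group was 0.68 to 0.89. Col1a1 and Col3a1 gave r = 0.77 and rho = 0.64 (permutation adjusted p = 0.00138 and 0.00822) and r = 0.68 without 2 arrays, and Col4a1 and Col4a2 gave r = 0.80 and rho = 0.66 (0.0009 and 0.00822) and r = 0.59. Within groups r was 0.22 to 0.96 for Col1a1 and Col3a1 and 0.58 to 0.88 for the collagen IV pair. Col6a1 and Col6a3 passed with r = 0.49 and rho = 0.51 (permutation adjusted p = 0.0413 and 0.0338), but not without wild-type vehicle replicate 6 (r = 0.42, adjusted p = 0.11) or with quantile normalized arrays (r = 0.47, adjusted p = 0.0618).

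The other 5 pairs did not pass the permutation test. Col5a1 and Col5a2 gave r = 0.08 (rho = 0.00), Col6a1 and Col6a2 0.34 (0.32), Col4a3 and Col4a4 0.26 (0.34), Col9a1 and Col9a2 0.23 (0.34) and Col8a1 and Col8a2 -0.15 (-0.12), with adjusted p of r from 0.221 to 0.749. Points of 1 array share its RNA and hybridization. Pairs of chains that do not assemble together were not tested, so whether partners correlate more than other chains is not known. Col4a1 and Col4a2 are neighbours in the genome, as are Col6a1 and Col6a2, while Col1a1, Col1a2 and Col3a1 are not neighbours of each other.

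**Figure D4:**
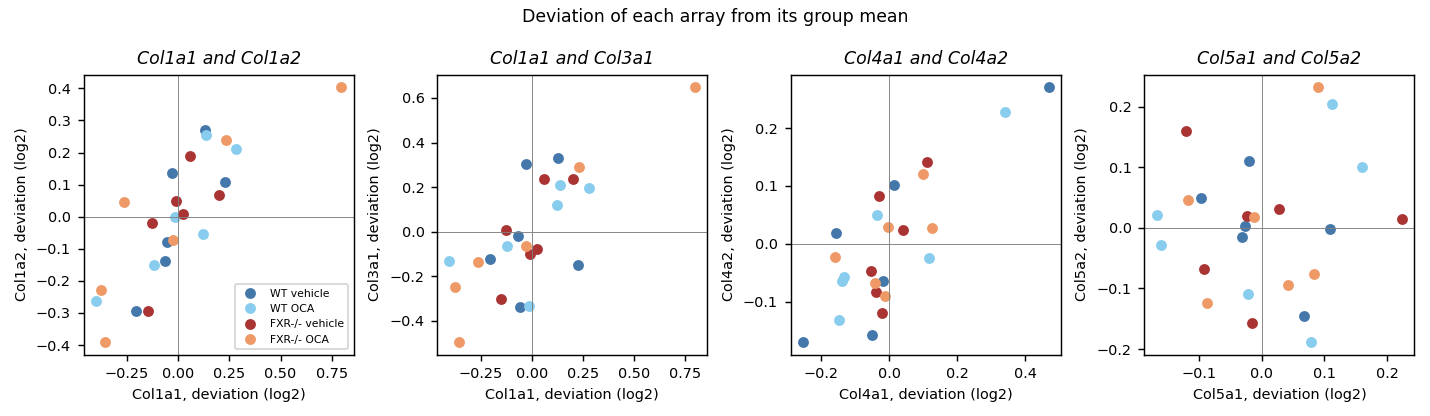
Deviation of each of the 24 arrays from its group mean (log2) for 4 pairs of collagen genes, coloured by group. Points of Col1a1 with Col1a2, Col1a1 with Col3a1 and Col4a1 with Col4a2 run along a rising line (r = 0.82, 0.77 and 0.80), while those of Col5a1 with Col5a2 do not (r = 0.08); 1 FXR-/- OCA array lies far to the upper right for the first 2 pairs.

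Of 42 measured genes that modify, trim, cross-link, organize or sense collagen, 20 were higher in FXR-/- liver with vehicle and 0 lower (47.6% called, against 27.5% of all genes), and 22 were not called. The median change was 0.32, and 8 of the 42 lay below 0. With OCA 25 were higher and 0 lower (59.5%, against 30.7% of all genes), with a median of 0.37 and 9 below 0. Among the enzymes of the endoplasmic reticulum, with vehicle, the prolyl hydroxylase genes P4ha1 (0.55) and P3h2 (0.63), the helper Crtap (0.73), the lysyl hydroxylase genes Plod2 (0.68) and Plod1 (0.30), P3h3 (0.39) and the galactosyltransferase genes Colgalt1 (0.47) and Colgalt2 (0.87) were higher. P4ha2 (-0.05), P4hb (0.11) and the chaperone gene Serpinh1 (0.41, adjusted p = 0.0543) did not pass. Outside the cell, Pcolce, which speeds removal of the procollagen C-propeptide, stood at 1.26 and the propeptide-cutting Adamts14 at 0.42, while the protease gene Bmp1 did not pass (-0.09).

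Pcolce read 6.59 to 6.85 (median 6.74) in wild-type and 7.88 to 8.12 (7.99) in FXR-/- vehicle livers, a gap wider than either group's range. Cross-linking genes Loxl1 (0.78) and Loxl2 (0.59) were higher and Lox was not called (0.05). Fibril-binding proteoglycan genes were higher, with Lum at 1.55, Dcn at 0.67 and Fmod at 0.34, as was the matrix protein gene Sparc (0.61) and the transcription factor gene Creb3l1 (0.50). Lum read 5.19 to 5.56 (5.34) in wild-type and 6.54 to 7.21 (6.86) in FXR-/- vehicle livers. The collagen receptor genes Ddr1 (1.48) and Ddr2 (0.91) and the collagen uptake receptor gene Mrc2 (1.18) were higher, while the integrin genes Itga1, Itga2 and Itga11 were not called with vehicle. With OCA the additional calls included Serpinh1 (0.56), Lox (0.41), Pxdn (0.54), P3h1 (0.22), Pcolce2 (0.63) and Itga1 (0.23), and Adamts14 was not called. These differences between treatments were not called in the test of OCA effects, which called 0% of all genes. The count with vehicle was 19 without wild-type vehicle replicate 6 (29% of all genes) and 22 within code number 7 (24.1% of all genes). With OCA it was 7 with the number as a block (12.4% of all genes).

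**Figure D5:**
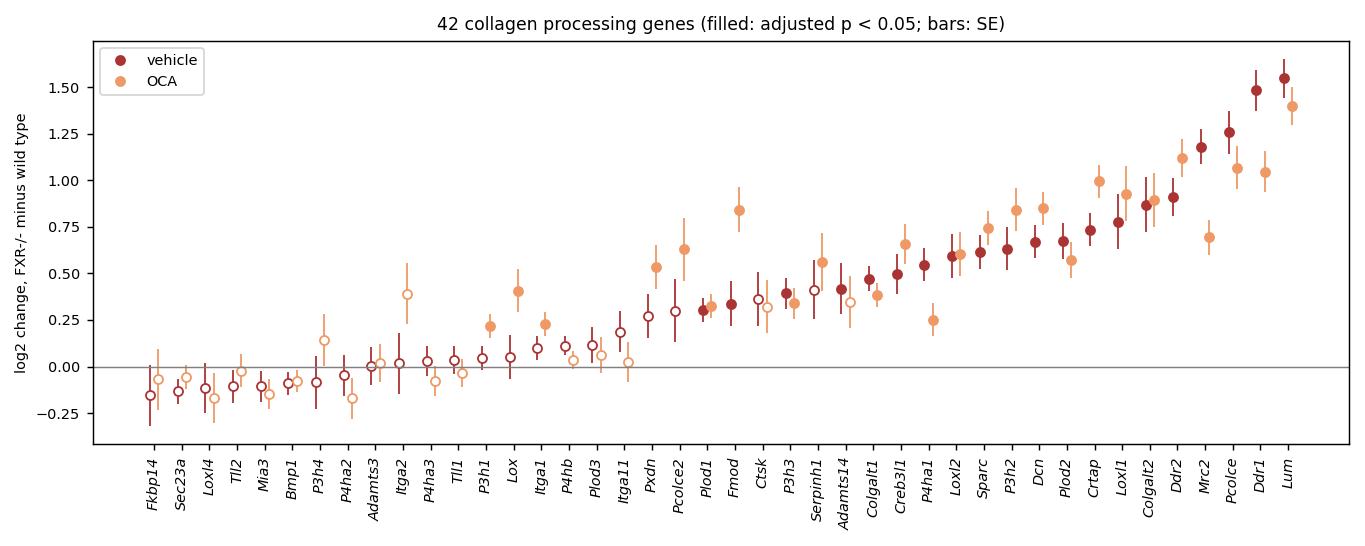
Log2 difference between FXR-/- and wild-type liver for 42 genes of collagen modification, trimming, cross-linking, binding and sensing, ordered by the vehicle difference; dark points are vehicle, light points OCA, bars are SE and filled points have an adjusted p under 0.05. Filled points all lie above 0, from Plod1 at 0.30 to Lum at 1.55 with vehicle.

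P4ha1, which encodes a catalytic subunit of the prolyl hydroxylase that stabilizes the triple helix, was the 1 gene of this list called for OCA in wild-type liver. It read 5.94 to 6.41 (median 6.14) with vehicle and 6.34 to 6.89 (6.65) with OCA in wild-type livers, and 6.64 to 6.80 (6.72) and 6.62 to 7.22 (6.90) in FXR-/- livers. The wild-type groups overlapped slightly, and the call (0.48 ± 0.09, adjusted p = 0.033) held in 4 of 12 fits without 1 array, those without wild-type OCA replicate 1 or wild-type vehicle replicate 1, 3 or 5. Without any other array of these groups it ended, at adjusted p from 0.0523 to 0.075, and it was lost with the replicate number as a block too (adjusted p = 0.0646). Over all 25 alternative settings the call held in 10, with values from 0.23 to 0.54 and limma adjusted p up to 0.636. In FXR-/- liver the OCA change was 0.18 (adjusted p = 0.977), and the difference of the 2 effects was not called (adjusted p = 0.769). Between genotypes with OCA, P4ha1 was higher in FXR-/- liver by 0.25 (adjusted p = 0.0343), a call that held in 10 of 24 settings.

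Some markers of the liver's cell types differed between genotypes beside the collagens, and the counts with vehicle stand against 27.5% of all genes called, 15.4% higher and 12.1% lower. Of 10 quiescent stellate cell genes, 5 were higher in FXR-/- liver with vehicle, Lrat (1.10), Pdgfrb (1.03), Des (0.45), Hand2 (0.45) and Reln (0.44), and 2 were lower, Hhip (-2.13) and Ecm1 (-0.75). The summed signal of that list was 10.92 to 11.21 (log2) in wild-type and 11.02 to 11.29 in FXR-/- vehicle livers, with overlap. Of 7 genes of activated stellate cells or myofibroblasts, Tagln (1.34), Timp1 (1.07), Acta2 (1.02) and Pdgfra (0.75) were higher and Postn (-0.32) and Fn1 (-0.18) lower. Its sum, 12.26 to 12.57 against 12.16 to 12.38, holds Fn1, which hepatocytes also make. Of 7 portal fibroblast genes 2 were higher, Fbln1 (0.64) and Fbln2 (0.47), with sums of 7.02 to 7.38 and 7.41 to 7.67 that did not overlap.

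Hepatocyte genes, 8 in all, gave 3 lower calls, Pck1 (-1.23), Hnf4a (-0.52) and Serpina1c (-0.48), with sums of 15.77 to 15.89 in wild-type and 15.57 to 15.68 in FXR-/- livers. Of 7 Kupffer cell genes 3 were higher (Vsig4, Cd5l, Clec4f) and 1 lower (C6), with sums of 11.39 to 11.99 and 11.64 to 11.83. Biliary genes gave 2 higher calls of 5 (Epcam, Krt19; sums 7.22 to 7.71 and 7.40 to 7.76), sinusoidal endothelial genes 2 lower of 8 (Oit3, Kdr; 11.55 to 11.84 and 11.26 to 11.71) and vascular endothelial genes 1 higher of 5 (Vwf; 9.30 to 9.83 and 9.30 to 9.71). Array values have no true zero, so no marker can be called absent. The part of these cell types in the collagen differences was not tested. Without wild-type vehicle replicate 6 the counts were the same for the quiescent stellate, portal fibroblast, sinusoidal, biliary and hepatocyte lists. The activated list then had 4 higher and 1 lower, the Kupffer list 4 higher and 1 lower and the vascular list 0 calls. Within code number 7 the activated list had 3 higher and 0 lower, the Kupffer list 4 higher and 1 lower, the biliary list 1 higher and the vascular list 0 calls, and the other lists had the same counts as over all arrays.

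With OCA, where 30.7% of all genes were called, the quiescent stellate list had 6 higher and 2 lower, the activated list 5 higher and 1 lower, the portal list 3 higher and the Kupffer list 4 higher and 1 lower. Changes ran from -2.18 to 1.37 in the quiescent stellate list, from -0.29 to 2.42 in the activated list and from -0.08 to 1.13 in the portal list. Among the higher calls, Acta2 stood at 2.42, Tagln at 1.41, Lrat at 1.37 and Fbln1 at 1.13. The hepatocyte list had 6 lower of 8, with Pck1 at -1.37, Hnf4a at -0.56 and Alb at -0.15. The sinusoidal list had 2 higher and 0 lower (Stab1 0.24, Fcgr2b 0.40), where with vehicle it had 2 lower, and the vascular list 3 higher of 5 (Cdh5 0.55, Emcn 0.34, Vwf 0.29). The biliary list had 1 higher (Cldn4 0.45). No member of any of these lists was called in the test of OCA effects between genotypes, which called 0% of all genes. Summed signals in wild-type and FXR-/- OCA livers overlapped for the quiescent stellate (10.74 to 11.14 and 10.99 to 11.33), sinusoidal (11.33 to 11.59 and 11.42 to 11.74), Kupffer (11.09 to 12.20 and 11.49 to 12.41) and biliary lists (7.37 to 7.62 and 7.57 to 7.75). They did not overlap for the activated (12.30 to 12.39 and 12.10 to 12.28) and portal lists (7.05 to 7.22 and 7.25 to 7.84). Nor did they for the vascular (9.23 to 9.46 and 9.61 to 10.03) and hepatocyte lists (15.82 to 15.90 and 15.54 to 15.69). The activated sum, which holds Fn1, was lower in FXR-/- livers although 5 of its 7 genes were called higher. Lox is on both the activated and the processing list. With the array number as a block, where 12.4% of all genes were called, the counts with OCA were 2 higher and 2 lower for the quiescent stellate, 2 higher for the activated, 2 higher for the portal, 4 higher for the Kupffer, 1 higher for the vascular, 1 higher for the biliary, 1 lower for the hepatocyte and 0 for the sinusoidal list.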

How the data were processed

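RNA from 24 livers was hybridized to 1 array each. The deposited log2 expression values were made with RMA, per the submitters' processing notes; the log2 scale follows from the range of 0.87 to 13.6, and the array's genome build and probe positions appear in neither the labels nor the files. Array medians over all probe sets were 4.57 to 4.65. Of 35556 probe sets, 21218 named 1 gene, 1881 several and 12457 none in the platform annotation; 21185 took the current RefSeq symbol by gene number. The probe set with the highest mean stood for each of 18820 genes. Each comparison was a contrast in limma 3.58.1 (R 4.3.3) on a model of 4 group means without covariates, with 20 residual and 4.46 prior degrees of freedom. P-values were Benjamini-Hochberg adjusted over all genes and called under 0.05. The fit was tested on simulated data. P-values measure the spread between mice.

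The collagen genes, classes, partner pairs, processing genes and cell type markers were chosen with earlier results of these data known. Named with full values are collagen genes called in any comparison, and always Col1a1, Col1a2, Col3a1, Col4a1, Col4a2, Col5a1, Col5a2, Col6a1, Col6a2, Col6a3, Col14a1, Col15a1 and Col18a1. Of the processing genes, Ppib, Fkbp10, Adamts2 and Loxl3 are not on probe sets with 1 symbol, nor are the markers Spp1 and Mfap4. Alternatives covered scaling, a level filter, limma options, blocks, probe set choice and leaving out arrays. Promoters are those of RefSeq, GRCm38.p6.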

Additional observations from a re-analysis of the deposited data

Results flagged for a closer look

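In 4 of 84 groups of 6 arrays, over 21 named collagen genes, 1 array lay far from the others for the group's range, about as often as chance flags, which is about 1 in 20. Col6a3 read 7.22 in FXR-/- OCA replicate 2, where the next highest array read 6.65. Col14a1 read 8.47 in wild-type OCA replicate 1, where the next read 8.13. Col4a1 read 6.29 in wild-type vehicle replicate 6, the array that stood apart over all genes, where the next read 5.84. Col12a1 read 4.58 in FXR-/- OCA replicate 3, where the next read 4.32. Of these 4 arrays, leaving out the last ended the Col12a1 call between genotypes with OCA, and leaving out the others ended no call of Col6a3, Col14a1 or Col4a1.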

How the results depend on the processing

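Centring each array on the median over its genes gave 31 collagen calls between genotypes with vehicle. In the other 24 of 25 alternatives they stayed within 1.5 times of 15. With OCA they stayed so of 18 in 21 of 24; centring gave 30, a block on the number in the array name 11, and that block without wild-type vehicle replicate 6, an alternative chosen after seeing the data, 6. The collagen processing calls with OCA fell from 25 to 7 and 6 under those 2 blocked settings; the cause was not tested. Leaving out 1 array at a time gave 14 to 16 collagen calls with vehicle, at least 14 of them shared, and 16 to 20 with OCA, at least 16 shared; the processing calls ran from 19 to 22 and from 24 to 26. The 3 counts of 0 for OCA and its difference between genotypes were 0 in every alternative run.

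For single genes, 936 of 1018 values over 42 results kept direction and side of the threshold, 72 lost the call, 4 gained it and 6 changed sign. The sign changes were those of 2 uncalled genes with vehicle: Col5a1 at -0.12 centred, -0.11 quantile normalized and -0.026 within array code number 7 and under either fit blocked on the number, and Col12a1 at -0.077 centred. The correlation of Col6a1 with Col6a3 lost its call when centred (r = 0.44, permutation adjusted p = 0.0922), quantile normalized (0.47) and without wild-type vehicle replicate 6 (0.42). The other 3 called pairs kept their call in these 3 settings, and the 5 uncalled pairs stayed uncalled.

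Whether the replicate numbers pair the mice is not known. Over 36 pairs of same-numbered arrays the correlations of deviations ran from -0.0824 to 0.17, with 2 over 0.1. Those 2 were replicates 1 and 6 of the wild-type vehicle and OCA groups. Low correlations do not exclude a weak pairing. With the replicate number as a block, collagen calls were 15 with vehicle, 18 with OCA and 0 in the other 3 comparisons, processing calls 20 and 26, and the call of P4ha1 for OCA in wild-type liver was lost.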
